A study of Mus musculus with 6 samples.

Results

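The genes described here are 10 genes of the cellular response to low oxygen: the subunits of the hypoxia-inducible factors (Hif1a, Epas1 and Arnt), the oxygen-sensing prolyl hydroxylases (Egln1, Egln2 and Egln3) and the target genes Ndrg1, Ankrd37, Bnip3 and P4ha1. They were chosen by symbol, with earlier results of these data known. All 10 were found among the 23284 genes of the files and had enough counts to be tested. They were read in bulk RNA-seq libraries of isolated pancreatic islets from mice 12 weeks old. The knockout group was Neurod1-floxed/floxed; Rip-Cre+ (libraries 4, 5 and 6, called knockouts 4, 5 and 6) and the control group was Neurod1-floxed/floxed without Cre (libraries 7, 10 and 16, called controls 7, 10 and 16), both on the strain written C56BL/J in the labels. Both groups thus carried floxed alleles of Neurod1, a transcription factor of endocrine cells and neurons. Cre was driven by the rat insulin promoter, which is active in beta cells, so other islet cells were not targeted by design, and effects of Cre and of the deletion cannot be told apart. Whether the libraries are of different animals is not in the labels, and p-values measure only the spread between these samples, which may be technical.

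Hypoxia-inducible factors are heterodimers of an oxygen-regulated alpha subunit, Hif1a or Epas1 (Hif2a), and the stable partner Arnt. When oxygen is available, the Egln enzymes hydroxylate prolines of the alpha subunits, and the Vhl ubiquitin ligase then marks these for degradation. This control acts on the protein, so transcript levels of the alpha subunits do not measure Hif activity, whereas transcripts of target genes respond to it. In islets Epas1 is known from endothelial cells as well as from endocrine cells.

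Hif dimers bind a short core, ACGTG or GCGTG, in the regulatory DNA of target genes. RefSeq promoter windows (build GRCm38.p6, 250 bases before to 50 after the gene start) were at hand for 8 of the 10 genes, and not for Ndrg1 and Epas1. The windows of 3 target genes are shown because they carry such cores and because their transcripts differed in how they compared between the groups below. Each is written 5′ to 3′ on the strand of the gene, with every match to ACGTG or GCGTG on either strand in capitals. The Ankrd37 window is chr8:45999801-46000100 (minus strand), that of Bnip3 is chr7:138909457-138909756 (minus strand) and that of P4ha1 is chr10:59323046-59323345 (plus strand).
Ankrd37: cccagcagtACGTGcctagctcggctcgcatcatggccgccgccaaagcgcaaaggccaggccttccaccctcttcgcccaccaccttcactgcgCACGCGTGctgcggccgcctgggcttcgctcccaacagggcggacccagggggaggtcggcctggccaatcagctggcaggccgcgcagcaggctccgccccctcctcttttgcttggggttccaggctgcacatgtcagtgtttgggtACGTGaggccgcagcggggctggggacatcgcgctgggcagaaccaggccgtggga
Bnip3: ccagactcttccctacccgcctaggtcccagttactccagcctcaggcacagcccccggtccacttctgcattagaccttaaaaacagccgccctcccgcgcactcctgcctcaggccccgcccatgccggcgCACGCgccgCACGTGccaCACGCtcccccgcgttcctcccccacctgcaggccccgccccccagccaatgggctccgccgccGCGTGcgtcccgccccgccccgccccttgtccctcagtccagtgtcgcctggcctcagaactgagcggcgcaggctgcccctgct
P4ha1: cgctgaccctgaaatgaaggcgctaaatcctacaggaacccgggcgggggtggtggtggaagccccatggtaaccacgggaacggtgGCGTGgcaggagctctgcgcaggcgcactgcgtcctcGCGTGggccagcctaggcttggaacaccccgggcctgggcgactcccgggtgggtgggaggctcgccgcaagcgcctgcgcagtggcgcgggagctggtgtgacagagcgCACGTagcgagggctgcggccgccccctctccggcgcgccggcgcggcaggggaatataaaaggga
The Ankrd37 window held 4 matches, Bnip3 held 5 and P4ha1 held 3, where the palindrome CACGTG counts as 2 because it holds ACGTG on both strands, and overlapping matches on opposite strands also count one by one. All 8 genes with a window held at least 1 match, as did 43.8% of the 32851 promoter windows in the table. At least 3 matches were found in 8.9% of them and at least 4 in 3.9%. Hif1a had 3 matches, Egln1 had 2, Arnt had 1 and Egln3 had 1. The windows of Egln2, which has 2 annotated starts, held 6 and 1. A match describes the letters of the window and is not a measured binding site.

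Total counts per library ranged from 12206393 to 20412435. Neurod1 fell from 172 ± 29.2 to 29.8 ± 1.41 counts per 1e+06 counts (CPM, SD, n = 3 each), and the groups did not overlap. The insulin genes were abundant in both groups, but Ins1 fell from 48668 to 4307 CPM (log2 difference -3.50, SE 0.25) while Ins2 was at 111006 CPM in control and 113090 CPM in knockout. Of 10 beta cell markers, which include Ins1 and Ins2, 3 rose and 3 fell. Together they took 17.5 to 19.5% of the counts in control and 13.5 to 14.8% in knockout libraries. Their mean summed level was 183147 CPM in control and 141888 CPM in knockout, a drop about as large as that of Ins1 alone. Acinar marker genes, most of which code for digestive enzymes, took 1.4 to 4.93% of the counts in control and 0.482 to 1.44% in knockout libraries. All 17 had log2 differences below 0. Of these, 2 were called lower by edgeR, the transcription factors Ptf1a and Rbpjl. DESeq2 called 16 lower, and 11 were lower at an unadjusted p under 0.05 by edgeR. Endothelial markers took 0.116 to 0.119% and 0.0762 to 0.0877%. Stellate cell and fibroblast markers took 0.0757 to 0.106% and 0.0545 to 0.0707%. Alpha cell markers took 3.66 to 5.07% and 2.67 to 3.45%. Gcg made up 40116 of their 41845 CPM on average in control, and it did not pass (log2 difference -0.45, adjusted p = 0.0663 by edgeR). All 6 alpha cell markers were below 0, and 1 was called lower, Irx1, which lost its call in 7 of 13 alternative analyses. Schwann cell markers took more in knockout, at 0.00356 to 0.00415% and 0.00528 to 0.00899%, and among them Ngfr rose from 7.37 to 44 CPM. Shares of delta and PP cell, duct cell and leukocyte markers overlapped between the groups. In bulk islets fewer cells of a type and less RNA per cell cannot be told apart.

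The comparison asked how transcripts of oxygen sensing differ between islets with Neurod1 deletion directed to beta cells and control islets. Of the 10 genes, 3 fell in the knockout (Ndrg1, Epas1 and Ankrd37), 0 rose and 7 did not pass the threshold of an adjusted p under 0.05 by edgeR's quasi-likelihood test over all genes. Among all 14770 genes tested, 24.4% were called by this rule, 12.6% lower and 11.8% higher. At an unadjusted p under 0.05, 5 of the 10 genes were lower and 0 higher. The share of all genes at that unadjusted rule is not reported here, and it cannot be below 24.4%. DESeq2 called 4 lower and 0 higher, and limma-voom 3 lower and 0 higher. Over all genes, DESeq2 called 1744 lower and 1884 higher, and limma-voom 1816 lower and 1690 higher. The log2 differences of the 10 genes ranged from -1.37 to -0.05 with a median of -0.36, beside a median of -0.01 over all genes tested. Because the genes were chosen with earlier results of these data known, this is not an unbiased measure of the pathway. In 6 of the 10 genes every knockout library lay below every control library, which was the case for 22% of all genes tested (42% did not overlap in either direction). In the authors' deposited table Ndrg1 and Epas1 had an adjusted p under 0.05, and Ankrd37 had 0.0509.

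**Figure D1:**
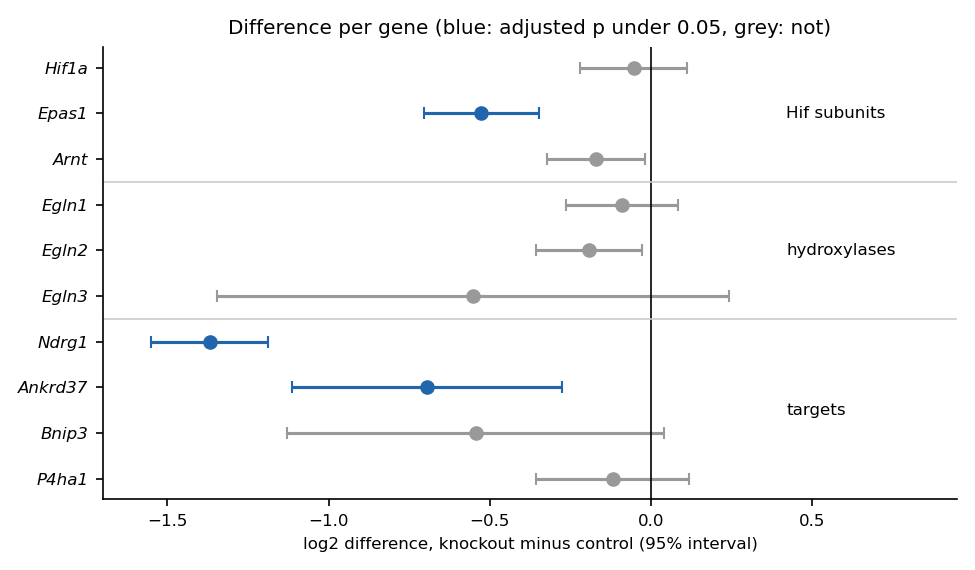
Log2 difference between knockout and control (x axis) for each of the 10 genes, grouped by role, with 95% intervals from edgeR. Ndrg1, Epas1 and Ankrd37 (blue) passed the threshold, Ndrg1 lies farthest from 0 at -1.37, and the interval of Egln3 is the widest.

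Of the subunits, Epas1, the alpha subunit also called Hif2a, was the one that fell. It had 156, 159 and 170 CPM in controls 7, 10 and 16 and 121, 113 and 103 CPM in knockouts 4, 5 and 6. Each knockout library lay well below each control library. Its log2 difference was -0.53 (SE 0.08, adjusted p = 0.00215), a level at 69.5% of control. Epas1 passed in each of the 13 alternative analyses, with values from -0.66 to -0.45.

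The other alpha subunit, Hif1a, had 108, 106 and 94.5 CPM in controls 7, 10 and 16 and 95.5, 103 and 99.3 CPM in knockouts 4, 5 and 6. These ranges overlapped, and control library 16 was the lowest of all 6. In the GENCODE M21 gene models, Hif1a exons share 148 bases with Gm49321 on the same strand and 330 bases with Gm15283 on the opposite strand. The log2 difference was -0.05 (SE 0.07, 95% interval -0.22 to 0.11, adjusted p = 0.629). With acinar marker expression added to the model as a covariate it was 0.11 (adjusted p = 0.482), and over the alternatives the adjusted p was 0.295 to 0.963.

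Arnt, the common partner subunit, had 76.2, 74.2 and 71.3 CPM in controls 7, 10 and 16 and 62, 66.1 and 69 CPM in knockouts 4, 5 and 6. The groups did not overlap but lay close together. The difference of -0.17 (SE 0.07, 95% interval -0.32 to -0.02) did not pass (adjusted p = 0.0981).

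Inside each library, where scaling has no part, the log2 ratio of Epas1 to Hif1a counts was 0.53, 0.58 and 0.85 in controls 7, 10 and 16. In knockouts 4, 5 and 6 it was 0.35, 0.13 and 0.05. Every knockout library had a lower ratio than every control library. The means were 0.65 ± 0.17 and 0.18 ± 0.15 (SD, n = 3 each), a difference of -0.48, and the two-sided exact permutation p was 0.1, the smallest that 3 libraries against 3 can give.

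**Figure D2:**
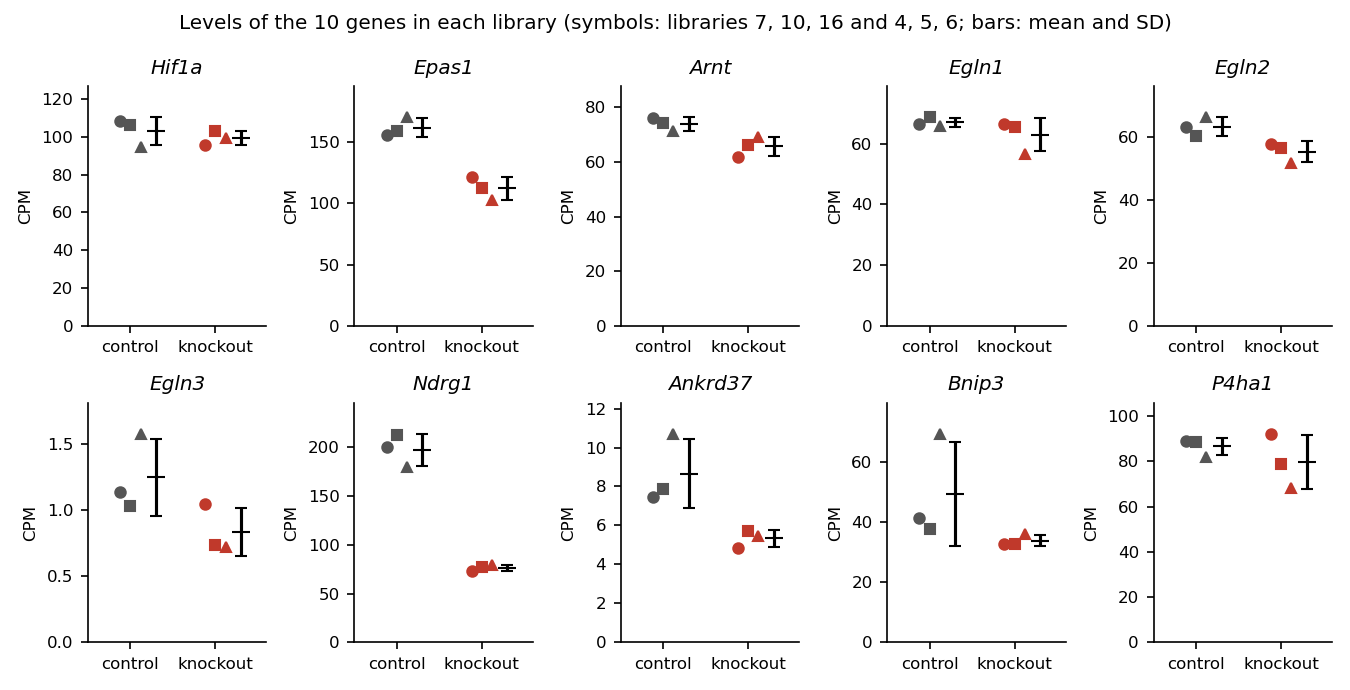
Level of each of the 10 genes in CPM (y axes start at 0) in the 3 control (grey) and 3 knockout (red) libraries, with the mean and SD beside the points. Epas1, Ndrg1 and Ankrd37 separate clearly, Hif1a, Egln1, Egln3 and P4ha1 overlap, and control library 16 (grey triangle) stands above the others for Bnip3.

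Endothelial markers moved beside Epas1. All 15 markers of the list had log2 differences below 0, with a median of -0.51, and 10 of them fell. Examples were Pecam1, an adhesion molecule of vessels (-0.49, SE 0.09), and Kdr, the main receptor for the vessel growth factor Vegfa (-0.44, SE 0.09), whose call was lost with the acinar covariate (adjusted p = 0.160). The summed level of the 15 markers was 1164 to 1175 CPM in control and 747 to 885 CPM in knockout libraries. The log2 ratio of Epas1 counts to the summed counts of these markers was -2.91, -2.87 and -2.79 in controls 7, 10 and 16 and -2.82, -2.97 and -2.86 in knockouts 4, 5 and 6. The ratios of the 2 groups overlapped, with means of -2.86 ± 0.06 and -2.88 ± 0.08 (SD, n = 3 each). The difference was -0.03, with a two-sided exact permutation p of 0.7 where 0.1 is the smallest possible. Epas1 thus fell by about as much as the summed endothelial markers in these libraries, and their part in its fall was not tested further.

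**Figure D3:**
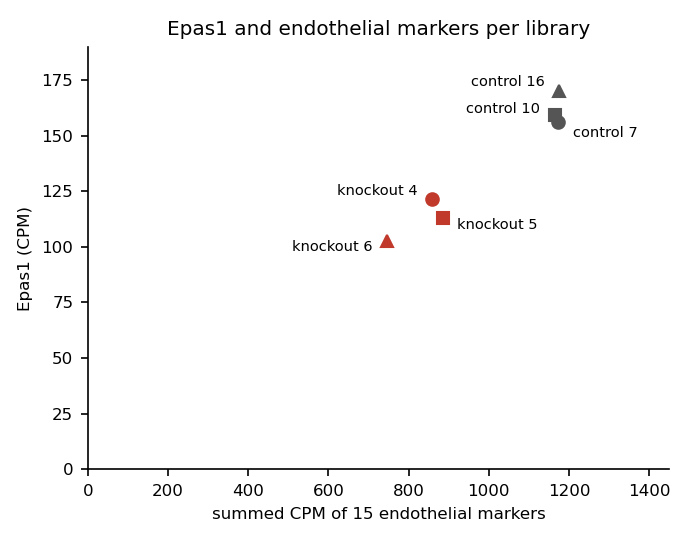
Epas1 level in CPM (y axis) against the summed CPM of 15 endothelial markers (x axis), 1 point per library, both axes from 0. The 3 control libraries lie between 156 and 170 CPM of Epas1 at 1164 to 1175 CPM of the markers, and the 3 knockout libraries lie lower on both axes.

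None of the hydroxylases passed: 0 of 3 were called lower or higher by edgeR, DESeq2 or limma-voom, and at an unadjusted p under 0.05 1 was lower (Egln2) and 0 higher. Egln1 (Phd2), regarded as the main oxygen sensor of the family, had 66.4, 68.7 and 65.9 CPM in controls 7, 10 and 16. It had 66.6, 65.5 and 56.6 CPM in knockouts 4, 5 and 6. Apart from knockout library 6 these values lay within a narrow band, and the difference was -0.09 (SE 0.08, 95% interval -0.26 to 0.09, adjusted p = 0.433).

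Egln2 (Phd1) had 63.4, 60.5 and 66.4 CPM in controls 7, 10 and 16 and 58, 56.7 and 51.7 CPM in knockouts 4, 5 and 6. The groups did not overlap. The difference of -0.19 (SE 0.07, adjusted p = 0.0848) missed the threshold, and of 13 alternatives only upper-quartile scaling called it (-0.22, adjusted p = 0.0453, with 0.0453 to 0.248 over the alternatives).

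Egln3 (Phd3), which is itself a strongly hypoxia-induced target in many cells, was near the lower limit of detection. It had 22, 21 and 23 counts in controls 7, 10 and 16 and 17, 11 and 9 counts in knockouts 4, 5 and 6, or 1.25 ± 0.29 and 0.835 ± 0.181 CPM (SD, n = 3 each). On the CPM scale the groups overlapped, since knockout library 4 (1.04) lay above control library 10 (1.03). The difference of -0.55 (SE 0.35, 95% interval -1.35 to 0.24, adjusted p = 0.285) was not resolved at this depth. It was -1.12 with the acinar covariate (adjusted p = 0.178). Egln3 made up 0.868, 0.791 and 1.18% of the counts of the 3 Egln genes in controls 7, 10 and 16, and 0.831, 0.599 and 0.663% in knockouts 4, 5 and 6 (two-sided exact permutation p = 0.2). Exact binomial 95% intervals, which cover counting error only, ran from 0.749 to 1.76% in control library 16 and from 0.3 to 1.07% in knockout library 5.

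Among the targets, Ndrg1 had the largest difference of the 10 genes. Ndrg1 codes for an N-myc downstream regulated protein that is induced by hypoxia and by differentiation in many cells. It had 200, 212 and 180 CPM in controls 7, 10 and 16 and 73, 77.5 and 78.8 CPM in knockouts 4, 5 and 6. The knockout libraries were alike and all far below the controls. The log2 difference was -1.37 (SE 0.08, adjusted p = 2.15e-05), a 2.58-fold fall from 197 ± 16.4 to 76.4 ± 3.03 CPM (SD, n = 3 each). It passed in all 13 alternatives, with values from -1.43 to -1.21. In the GENCODE M21 gene models its exons share 419 bases with Gm17035 and 137 bases with Gm2895, both on the opposite strand, and reads of these cannot be told apart without strand.

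Ankrd37, a small ankyrin repeat protein and a direct Hif1a target in other cells, was a low transcript that fell. Its counts were 144, 160 and 156 in controls 7, 10 and 16 and 79, 85 and 68 in knockouts 4, 5 and 6, or 7.44, 7.85 and 10.7 CPM and 4.85, 5.7 and 5.46 CPM. The groups did not overlap, and control library 16 was the highest. The log2 difference was -0.69 (SE 0.18, adjusted p = 0.0254), a 1.62-fold fall. This call was lost without knockout library 4 (adjusted p = 0.0812) or 6 (0.0616), without control library 10 (0.052) or 16 (0.079). It was also lost with the acinar covariate, where the difference was larger and less precise (-0.91, SE 0.26, adjusted p = 0.0619). Over the 13 alternatives the adjusted p was 0.022 to 0.0812. In the GENCODE M21 gene models its exons share 349 bases with Lrp2bp and 57 bases with Ufsp2, both on the opposite strand, and no source used here says whether the counting used strand. Lrp2bp had 2.99 ± 0.5 and 1.87 ± 0.5 CPM in control and knockout (SD, n = 3 each, -0.69, SE 0.29, adjusted p = 0.116). Whether reads of Lrp2bp and Ankrd37 are mixed in the counts was not tested. Ufsp2 was at 0.19 (SE 0.09, adjusted p = 0.160).

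Bnip3 codes for a mitochondrial protein that promotes removal of mitochondria, and its exons share 504 bases with Gm45507 on the opposite strand. It had 41.3, 37.8 and 69.4 CPM in controls 7, 10 and 16. In knockouts 4, 5 and 6 it had 32.9, 32.6 and 36.1 CPM. The groups did not overlap, but control library 16 stood apart from both other controls. The difference of -0.54 (SE 0.24, 95% interval -1.13 to 0.04) did not pass with edgeR (adjusted p = 0.157), and without control library 16 it was -0.23 (adjusted p = 0.114). With the acinar covariate its adjusted p was 0.0517, and the difference was nearly 1 on the log2 scale below control. DESeq2 called it (-0.53, adjusted p = 0.0399, with 0.0399 to 0.339 over the 13 alternatives).

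P4ha1, a catalytic subunit of the collagen prolyl 4-hydroxylase, had 89, 88.8 and 82.1 CPM in controls 7, 10 and 16 and 92.2, 78.7 and 68.4 CPM in knockouts 4, 5 and 6. Knockout library 4 was the highest of all 6 and knockout library 6 the lowest. The difference of -0.12 (SE 0.10, 95% interval -0.36 to 0.12, adjusted p = 0.449) did not pass. Of the 3 targets whose promoter windows are printed above, the transcripts therefore differed by -0.69, -0.54 and -0.12, and Ankrd37 alone passed.

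Levels were set against each other per kilobase of the longest GENCODE M21 transcript, an approximation because the sources used here do not name the annotation behind the counts. By this measure Ndrg1 was highest in control islets at 48.7 ± 4.05 CPM per kilobase (SD, n = 3). Egln2 (30.1 ± 1.40), Epas1 (29.3 ± 1.35) and Bnip3 (28.2 ± 9.88) followed and did not differ from each other beyond their spread. Hif1a (21.8 ± 1.57) and P4ha1 (21.4 ± 0.971) were also alike, followed by Egln1 (18.6 ± 0.412) and Arnt (17.1 ± 0.568). Ankrd37 (9.34 ± 1.92) and Egln3 (0.469 ± 0.109) were lowest. In knockout islets, by the same measure, Egln2 came first at 26.3 ± 1.56 CPM per kilobase. Hif1a (21 ± 0.787), Epas1 (20.4 ± 1.69), P4ha1 (19.7 ± 2.96), Bnip3 (19.3 ± 1.1) and Ndrg1 (18.9 ± 0.749) lay within about 1 SD of their neighbours. Egln1 (17.5 ± 1.52), Arnt (15.2 ± 0.819), Ankrd37 (5.76 ± 0.47) and Egln3 (0.314 ± 0.0681) were lower. The order depends on the gene model. Per kilobase of all exons of a gene joined, Ndrg1 (29.9 ± 2.48) and Epas1 (29 ± 1.33) were alike in control. By that measure Epas1 (20.1 ± 1.67), Egln2 (19.8 ± 1.18) and P4ha1 (19.4 ± 2.91) were alike and highest in knockout, and Ndrg1 was at 11.6 ± 0.46.

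Paralogs and partners of these genes did not move as 1 group. Of 8 listed, 7 were tested, of which 3 fell, 2 rose and 2 did not pass. In the Ndrg family, Ndrg4 fell from 48.2 ± 3.26 to 26.8 ± 5.84 CPM (SD, n = 3 each, log2 difference -0.85, SE 0.14) and Ndrg2 fell from 19.8 ± 3.12 to 14.4 ± 1.09 CPM (-0.46, SE 0.13). Ndrg3 rose from 148 ± 8.11 to 180 ± 11 CPM (0.28, SE 0.08). Ndrg2 lost its call in 6 and Ndrg3 in 5 of 13 alternatives, and Ndrg4 lost its call with the acinar covariate (adjusted p = 0.0863). Bnip3l (Nix), the paralog of Bnip3, rose slightly (0.20, SE 0.06, adjusted p = 0.0492) and lost its call in 9 of 13 alternatives. P4ha2 was at -0.22 (adjusted p = 0.213), and P4ha3 had too few counts to be tested.

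Arnt2, the neural paralog of Arnt, fell from 31.8 ± 2.49 to 21.6 ± 0.687 CPM (SD, n = 3 each). Its values were 34.4, 31.5 and 29.4 CPM in controls 7, 10 and 16 and 22.1, 20.8 and 21.9 CPM in knockouts 4, 5 and 6. The groups were well apart (log2 difference -0.56, SE 0.09, adjusted p = 0.0029), and the call was lost with the acinar covariate (adjusted p = 0.0611). Hif3a, an alpha subunit whose forms can restrain the others, was at -1.69 (SE 0.56, adjusted p = 0.0629) with large spread among controls (20, 78 and 77 counts). It was called lower with DESeq2 and without control library 7.

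**Figure D4:**
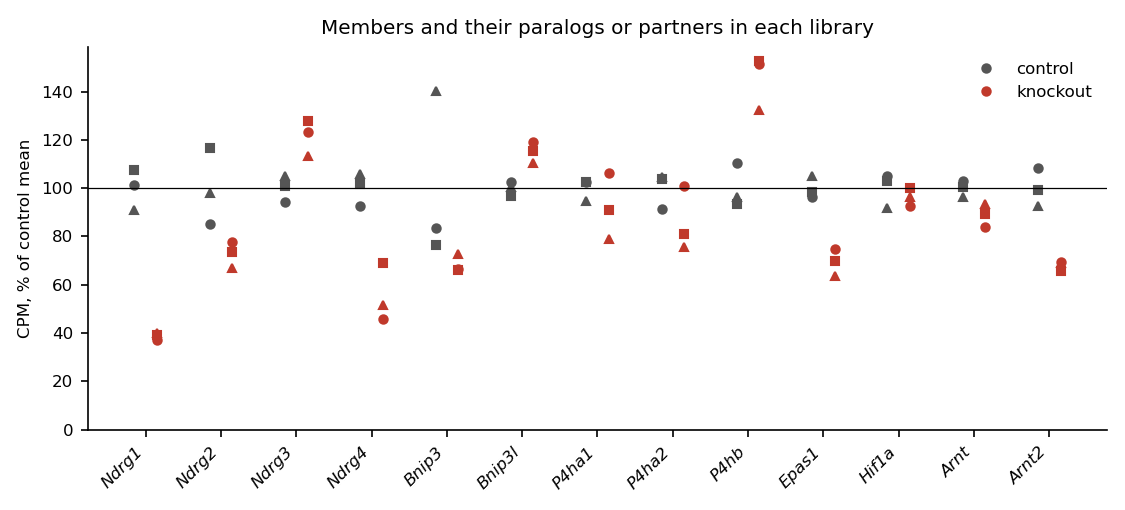
Level in each library as percent of the control mean (y axis from 0) for members and their paralogs or partners, control in grey and knockout in red. Ndrg1 falls and Ndrg3 rises within 1 family, Arnt2 falls while Arnt lies nearer to control, and P4hb lies above control in every knockout library.

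Of 13 other genes of the Hif system, 2 rose, 1 fell and 10 did not pass. The single fall was Arnt2. Components of the Vhl ubiquitin ligase that rose were elongin B, named Tceb2 in the files (22.9 ± 3 to 32.6 ± 1.7 CPM, SD, n = 3 each, log2 difference 0.51, SE 0.11), and the cullin Cul2 (0.28, SE 0.07). The call of Cul2 was lost in 6 of 13 alternatives and that of Tceb2 with the acinar covariate (adjusted p = 0.153). Vhl itself was at 0.00 (SE 0.13, adjusted p = 0.990), and Hif1an, the asparaginyl hydroxylase that blocks coactivator binding, was at -0.01 (SE 0.06, adjusted p = 0.962).

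Other known Hif targets moved both ways. Of 54 listed, 52 were tested: 7 rose, 8 fell and 37 did not pass. That is 13.5% higher and 15.4% lower, beside 11.8% and 12.6% of all genes tested, and the median log2 difference was -0.12. Under the acinar covariate 2 were called higher and 2 lower (Ldha and Plod2, Plod1 and Ndufa4l2), and 4 of the 15 calls were kept. All genes called fell to 933 higher and 791 lower under that covariate, from 1736 and 1864.

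Of 20 tested genes of glucose uptake and glycolysis, 2 rose, 3 fell and 15 did not pass. Ldha, which turns pyruvate into lactate, had 16.4, 23.1 and 20.5 CPM in controls 7, 10 and 16 and 114, 96.7 and 102 CPM in knockouts 4, 5 and 6. Every knockout library was several times above every control library (2.38, SE 0.13, adjusted p = 2.04e-05). Pgk1, an ATP-producing step of glycolysis, rose by 0.57 (SE 0.10), while the glucose transporter Slc2a3 fell by 0.59 (SE 0.14). Both lost their calls with the acinar covariate (adjusted p = 0.0501 for Pgk1), and Slc2a3 also without control library 10. Gpi1 (-0.19) and Pfkl (-0.22) were called with small differences and lost the call in 10 of 13 alternatives each. Slc2a1 (-0.13, adjusted p = 0.655), the Hif-regulated glucose transporter, and Pdk1 (0.09, adjusted p = 0.718), which holds pyruvate out of mitochondria, did not pass. Gapdh was counted at only 3.78 ± 0.457 CPM in control (SD, n = 3) and Eno1 had 1 count in all 6 libraries together. Both have many near-identical copies in the genome, as do Ldha, Pgk1 and Pgam1, so levels of these genes are uncertain.

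Of 8 vascular and secreted targets 2 fell and 6 did not pass, and 0 rose by edgeR, DESeq2, limma-voom or at an unadjusted p under 0.05. Pdgfb, a growth factor that recruits pericytes to vessels, fell from 20 ± 2.88 to 11.8 ± 2.08 CPM (SD, n = 3 each, -0.76, SE 0.16). Stc2, a secreted glycoprotein, fell from 4.94 ± 0.781 to 2.07 ± 0.76 CPM (-1.25, SE 0.28). Both lost their calls with the acinar covariate (adjusted p = 0.0675 and 0.192), and Stc2 also without control library 10. Vegfa, the chief angiogenic factor of islets, was at 594 ± 70.2 and 526 ± 60.1 CPM (SD, n = 3 each, -0.17, SE 0.12, adjusted p = 0.308), and Adm was at -1.08 (adjusted p = 0.0962).

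Of 9 targets of mitochondria, lipid and stress 3 rose, 2 fell and 4 did not pass. Hmox1, which breaks down haem, had 7.7, 7.21 and 5.63 CPM in controls 7, 10 and 16 and 2.27, 2.14 and 3.21 CPM in knockouts 4, 5 and 6. The groups were apart (-1.44, SE 0.23, adjusted p = 0.00284), and the call was lost with the acinar covariate (adjusted p = 0.0732). Ndufa4l2, a mitochondrial protein that lowers complex I activity in hypoxia, fell by 0.75 (SE 0.20), and its call was lost in 4 of 13 alternatives, those without knockouts 5 or 6 and those without controls 7 or 16. Higd1a, a hypoxia-induced mitochondrial protein, rose from 9.05 ± 2.04 to 15.6 ± 0.523 CPM (SD, n = 3 each, 0.80, SE 0.16), and lost its call with the acinar covariate (adjusted p = 0.148). Mxi1 rose by 0.34 (SE 0.10) and lost its call in 8 of 13 alternatives. The mTORC1 inhibitor Ddit4 was at -0.18 (adjusted p = 0.784).

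Collagen-modifying enzymes split. Of 6 tested, 2 rose, 1 fell and 3 did not pass. P4hb, which is the partner of P4ha1 in the prolyl 4-hydroxylase and also a disulfide isomerase of the endoplasmic reticulum, rose from 1083 ± 98.8 to 1576 ± 122 CPM (SD, n = 3 each, 0.54, SE 0.10, adjusted p = 0.00632). The lysyl hydroxylase Plod2 rose from 12.1 ± 0.565 to 19.3 ± 1.14 CPM (0.67, SE 0.10), while its paralog Plod1 fell from 47.1 ± 2.82 to 28.2 ± 2.93 CPM (-0.74, SE 0.09). P4hb lost its call with the acinar covariate (adjusted p = 0.0541), and Plod1 and Plod2 kept theirs in all 13 alternatives. Of 10 stellate cell and fibroblast markers, which mark the main collagen-making cells, 10 were below 0 and 3 fell, with a summed level of 767 to 1052 CPM in control and 535 to 716 CPM in knockout libraries. Their part in the values of the collagen enzymes was not tested.

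In the chromatin and transcription list 0 of 7 targets passed by edgeR, DESeq2 or limma-voom, or at an unadjusted p under 0.05, and the most abundant was Kdm4c (-0.07, SE 0.07). In the pH list 0 of 2 tested genes passed by edgeR, DESeq2 or limma-voom, with 1 lower at an unadjusted p under 0.05. Car9, a sensitive reporter of Hif activity in many cells, had 12, 14 and 13 counts in controls 7, 10 and 16 and 1, 3 and 5 counts in knockouts 4, 5 and 6. The groups did not overlap, but these counts were below the filter, and Car9 was called lower without knockout library 6, where it passed the filter, and not called with no filter.

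**Figure D5:**
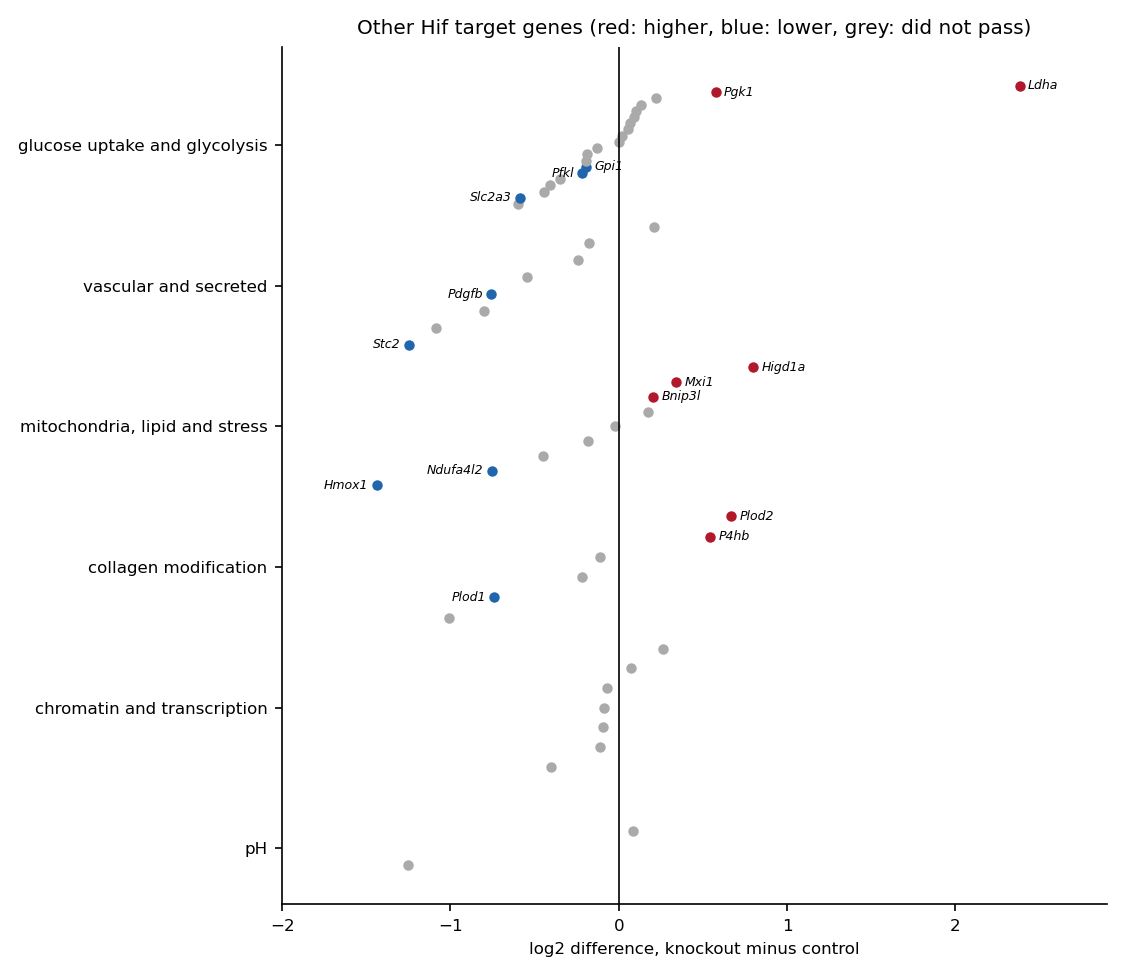
Log2 difference between knockout and control (x axis) for the 52 tested other Hif targets in 6 groups by role, 1 point per gene. The 7 higher (red) and 8 lower (blue) genes are named, and they lie on both sides of 0 in the groups of glycolysis, mitochondria and collagen modification.

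The genes most like Epas1 and Ndrg1 across the libraries were found from log2 CPM centred on each gene's mean over 6 libraries, among 14079 genes with at least 1 CPM on average. For Epas1 they were Vat1, Slc29a1 and Prkar1b, with root mean square differences of 0.037, 0.04 and 0.041. Their log2 differences between the groups were -0.52, -0.54 and -0.50. For Ndrg1 they were B4galnt4, Cntfr and Phf16, at 0.049, 0.058 and 0.06, with log2 differences of -1.43, -1.45 and -1.39. Likeness was taken over the same libraries, so log2 differences close to those of Epas1 and Ndrg1 follow from the choice.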

How the data were processed

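The deposited files give, for each library, raw counts by gene. The authors' comparison table adds a signal (group means of scaled counts), a fold ratio, the log2 of that ratio and p-values. Per the submitters' processing notes, the tools were TopHat2 2.1.0 and Cufflinks 2.0.2, with bcl2fastq 1.8.4 and with DESeq, and the build was mm9. No source used here names the counter, the annotation or the use of strand. The submitters' GEO titles gave the groups. They share no replicate number.

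The main analysis used edgeR 4.0.16 (R 4.3.3) on these counts: filterByExpr (minimum count 10, minimum total 15) left 14770 of 23284 genes, TMM factors were used, and the robust quasi-likelihood test compared the groups over all genes with Benjamini-Hochberg adjustment. The biological coefficient of variation was 14.2%. CPM use TMM-scaled library sizes. Standard errors come from the same fit. Chi-square tests between replicates gave 16.6 to 43 per degree of freedom, above sampling noise, so no library was counted as a copy. DESeq2 1.42.0, limma-voom (limma 3.58.1), other scalings, no filter, no robust estimation, an acinar covariate (log2 of the summed acinar markers) and leaving out each library were the 13 alternatives.

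The members and gene lists were chosen with earlier results of these data known. Named genes were Neurod1, the members, of each other Hif list the most significant genes (up to 4 per direction), or the most abundant gene where none passed (for 1 list it is not reported here), the tested paralogs, the 3 genes most alike to Epas1 and Ndrg1, and up to 2 markers per cell type. Other genes named, including Hif1an, Vhl, Hif3a, Vegfa, Adm, Slc2a1, Pdk1, Gapdh, Eno1, Ddit4, Car9 and the overlapping genes Lrp2bp and Ufsp2, were picked after their values were seen. On simulated counts of 14770 genes, 100 genes were changed 1.5-fold and 100 were changed 2-fold between knockout and control. There edgeR recovered 42% of 1.5-fold and 77% of 2-fold changes, and 9.16% of its calls were false. The genes changed were a far smaller share than the 24.4% called in the data, so these rates need not hold for the data.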

Additional observations from a re-analysis of the deposited data

How the results depend on the processing

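No paired analysis was possible because the groups share no replicate number. Epas1 and Ndrg1 were called lower in all 13 alternatives, and all 10 members stayed below 0 except Hif1a with the acinar covariate (0.11). The number of members called lower was 2 with the acinar covariate, 4 with DESeq2 and with upper-quartile scaling, 3 in the other analyses of all 6 libraries and 2 to 3 when 1 library was left out, and 0 were higher in each. The acinar covariate gave 2 higher and 2 lower other Hif targets and 933 higher and 791 lower genes. A call lost under this covariate need not mean a smaller difference: Ankrd37 went from -0.69 (SE 0.18) to -0.91 (SE 0.26). Leaving out 1 library gave 4 to 6 lower and 5 to 7 higher other Hif targets, with 4 lower without control library 10. It gave 1153 to 1590 higher and 1225 to 1433 lower genes, the fewest without control library 10. The knockout minus control difference in the log2 ratio of Epas1 to the endothelial markers was -0.06 to 0.01 when 1 library was left out. Other scalings moved the median of all genes by under 0.1 on the log2 scale. With 9 to 23 counts per library, depth limits Egln3, and 3 libraries per group limit all small differences.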
